A study of Mus musculus with 12 samples.

Results

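A set of 10 genes that specify mouse germ cells or mark their identity (10 of the 37991 genes in the deposited table) were followed across germ cells of both sexes with and without a conditional knockout of Ezh2. The genes are Prdm1, Prdm14, Tfap2c, Nanos3, Dnd1, Kit, Alpl, Lin28a, Dazl and Ddx4. They were chosen by name, by matching the Ensembl identifier of each row to a symbol, and each matched exactly 1 row. All 10 passed the filter on low counts. RNA was sequenced from primordial germ cells of 12 embryos at E13.5, the stage at which gonadal sex has been set, all on the C57BL/6 background, and each library holds the cells sorted from 1 embryo. The groups were female Ctrl (3 embryos), female CKO (2), male Ctrl (4) and male CKO (3), where CKO is the label for the conditional Ezh2 knockout and Ctrl for its control. The column names of the count table call the Ctrl libraries WT. The labels name neither the Cre driver nor the genotype of the Ctrl embryos, and they do not say whether embryos shared a litter.

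Mouse germ cells arise from epiblast cells in which BMP signals switch on the transcription factor genes Prdm1, Prdm14 and Tfap2c. The RNA-binding proteins NANOS3 and DND1 then keep the migrating cells alive, the receptor KIT reads the ligand made by the surrounding tissue, and tissue-nonspecific alkaline phosphatase, encoded by Alpl, is the enzyme by which these cells were first stained. Once in the gonad the cells make the RNA-binding protein DAZL and the RNA helicase DDX4, and soon afterwards female cells enter meiosis while male cells stop dividing. The enzyme EZH2 places the histone mark H3K27me3 as the catalytic part of Polycomb repressive complex 2, and the study asked how this mark holds the transcription programme of germ cells during their epigenetic reprogramming.

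Total counts ran from 26180685 to 35299206 per library. Levels are given as CPM, the count relative to library size after TMM scaling, and 1 CPM was worth 24.2 to 34.2 counts. Ezh2 itself was at 145 to 166 CPM in female Ctrl and 84.5 and 107 CPM in female CKO (log2 fold change -0.68, SE 0.15, edgeR's adjusted p = 0.02), and at 96.6 to 144 CPM in male Ctrl and 82.4 to 85.8 CPM in male CKO (-0.53, SE 0.13, 0.0527). Ctrl and CKO did not overlap in either sex. Leaving out female CKO 1 (0.165) or female Ctrl 3 (0.0779) ended the call in females, and in males the gene passed in DESeq2 (0.00777), without the filter on low counts (0.0295) and without male Ctrl 1 (0.0162). Counts over the whole gene do not tell how much functional transcript was left. Germ cell markers outside the 10 genes (7 of 8 listed genes matched, Pou5f1, Dppa3, Dppa4, Sall4, Utf1, Tdrd1 and Mael) summed to 1737 to 2106 CPM in females and 2725 to 3199 CPM in males, and none was at 0 in any library. Summed Sertoli markers were at 1.61 to 2.72 CPM in females and 6.48 to 21.9 CPM in males, and those of endothelium, macrophages and mast cells, steroidogenic cells, granulosa cells and interstitial mesenchyme were between 0 and 17.3 CPM in every library. Red blood cell markers reached 16.1 CPM in female CKO 1 and 17.9 CPM in male CKO 1 and were at most 2.03 CPM elsewhere. Mesonephric markers were at 6.56 to 23.2 CPM in females and 90.1 to 113 CPM in males, where Lhx1 made up most of the sum and Pax2 and Cdh16 stayed under 0.1 CPM. The part of such cells in the results below was not tested. In RNA from many cells, fewer expressing cells and less RNA per cell cannot be told apart.

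Compared per kilobase of exonic length, the 10 genes covered a wide range of levels, with the genes of gonadal germ cells far above the specification factors. Dazl was the most abundant in each of the 4 groups, at 809 ± 23.2 CPM per kb (SD, n = 3) in female Ctrl and 624 ± 25.6 (n = 4) in male Ctrl, and Ddx4 came second at 378 ± 17 and 358 ± 63.6. Among all genes tested in female Ctrl, Dazl stood at the 99.9th percentile of the length-scaled mean level and Ddx4 at the 99.6th percentile. Next in female Ctrl came Alpl (92 ± 4.13 CPM per kb), Dnd1 (85.7 ± 6.37) and Kit (58.9 ± 5.11), then Tfap2c (47.2 ± 4.73) and Lin28a (35.2 ± 3.49). The lowest were Prdm1 (18.9 ± 3.49), Prdm14 (14.8 ± 2.46) and Nanos3 (10.7 ± 1.39). Of neighbours in this order only Alpl and Dnd1, and Prdm1 and Prdm14, overlapped between embryos. In male Ctrl the order below Ddx4 differed: Dnd1 (87.3 ± 19.9) and Kit (60.3 ± 17.4) led, Prdm1 (33.9 ± 7.33), Alpl (29.8 ± 7.37), Prdm14 (26.2 ± 3.31) and Tfap2c (26.1 ± 11.6) followed, and Nanos3 (20.9 ± 6.05) and Lin28a (17.3 ± 1.87) were last. There every neighbour from Prdm1 down overlapped with the next, as did Dnd1 with Kit. Lengths are exon unions of an annotation on a newer assembly than that of the counts, so these levels are approximate. Even Nanos3, the least counted, had at least 277 counts in each library.

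**Figure D1:**
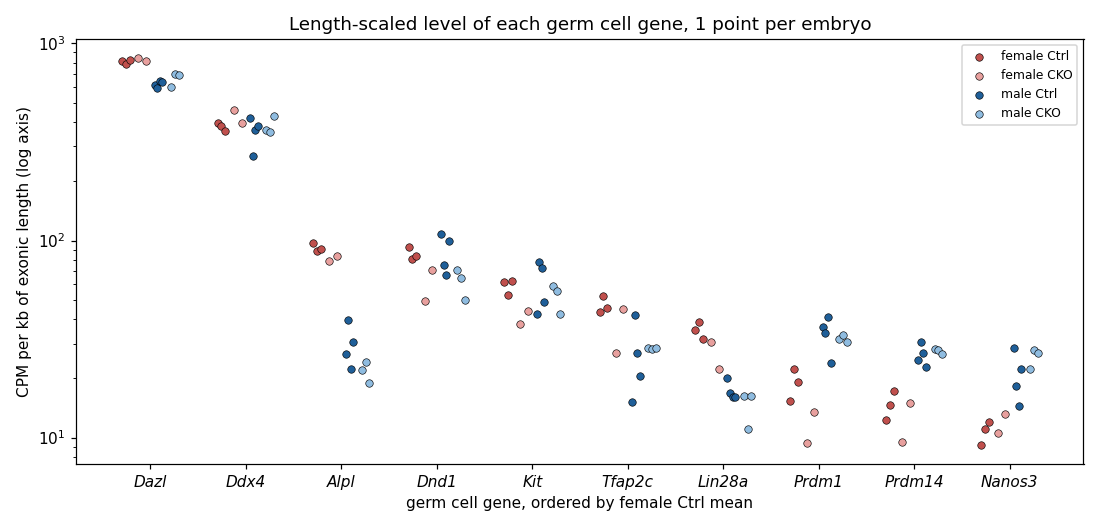
Level of the 10 genes in CPM per kilobase of exonic length (vertical log axis), 1 point per embryo, coloured by group, with genes ordered by their female Ctrl mean. Dazl and Ddx4 lie above all others in every library, and the 4 groups separate by sex for Alpl and Lin28a (females higher) and for Prdm1, Prdm14 and Nanos3 (males higher).

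Most of these genes differed between the sexes in control germ cells, and they did so in both directions. Of the 10 genes, 4 were higher and 3 lower in female than in male Ctrl (edgeR's quasi-likelihood test, Benjamini-Hochberg adjusted over 16708 genes), and the CPM of these 7 did not overlap between the sexes. At this stage the sexes differ widely: 39.5% of all tested genes were called, 20.1% higher and 19.4% lower in females (3358 and 3246 genes, or 4062 and 2592 when scaled by library size alone), and 43.4% of all genes had groups that did not overlap (22.3% higher and 21.1% lower). The median log2 fold change of the 10 genes was 0.02, against 0.00 over all genes. Higher in females were the alkaline phosphatase gene Alpl, the RNA-binding protein gene Lin28a, Tfap2c and Dazl. Higher in males were Prdm1, Prdm14 and Nanos3, while Dnd1, Kit and Ddx4 were not called.

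Promoter sequences are shown for the genes that differed between the sexes, to set the base composition of the female-high genes beside that of the male-high ones; Polycomb repressive complex 2 is known to act at promoters rich in CpG. Windows from RefSeq's table (GRCm38.p6) were used for 7 of the 10 genes, and none was used for Prdm14, Tfap2c or Dnd1. For Dnd1 this does not show that RefSeq lacks an entry. Each window is the 250 bases before a transcription start, 5′ to 3′ on the gene's strand, with every CG in capitals. CG reads the same on both strands, and 92.1% of the 32851 windows in the table hold at least 1, with a median of 6. The windows lie on another assembly than that used for the counts and were used for the sequence only. The first start of Alpl lies upstream of the second.
Alpl, first start (chr4:137796385-137796634, minus strand): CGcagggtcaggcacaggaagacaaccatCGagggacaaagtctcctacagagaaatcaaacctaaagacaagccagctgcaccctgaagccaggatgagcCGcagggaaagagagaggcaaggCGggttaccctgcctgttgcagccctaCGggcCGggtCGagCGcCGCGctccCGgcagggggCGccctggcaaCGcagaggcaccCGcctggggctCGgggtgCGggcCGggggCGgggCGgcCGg
Alpl, second start (chr4:137766476-137766725, minus strand): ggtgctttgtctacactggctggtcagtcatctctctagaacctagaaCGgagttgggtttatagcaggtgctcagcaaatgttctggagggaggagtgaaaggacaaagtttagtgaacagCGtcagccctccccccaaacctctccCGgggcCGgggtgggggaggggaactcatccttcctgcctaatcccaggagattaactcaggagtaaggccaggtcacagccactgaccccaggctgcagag
Lin28a (chr4:134018817-134019066, minus strand): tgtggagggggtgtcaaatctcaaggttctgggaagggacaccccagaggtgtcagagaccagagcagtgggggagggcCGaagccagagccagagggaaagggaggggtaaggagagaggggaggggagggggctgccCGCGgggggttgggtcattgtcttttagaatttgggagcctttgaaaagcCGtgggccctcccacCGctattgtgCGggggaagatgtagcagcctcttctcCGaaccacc
Dazl (chr17:50293621-50293870, minus strand): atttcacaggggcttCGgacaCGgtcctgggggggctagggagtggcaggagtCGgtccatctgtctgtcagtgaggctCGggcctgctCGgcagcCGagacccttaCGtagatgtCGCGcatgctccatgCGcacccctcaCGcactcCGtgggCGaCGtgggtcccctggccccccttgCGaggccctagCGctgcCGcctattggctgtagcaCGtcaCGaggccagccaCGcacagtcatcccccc
Prdm1 (chr10:44458749-44458998, minus strand): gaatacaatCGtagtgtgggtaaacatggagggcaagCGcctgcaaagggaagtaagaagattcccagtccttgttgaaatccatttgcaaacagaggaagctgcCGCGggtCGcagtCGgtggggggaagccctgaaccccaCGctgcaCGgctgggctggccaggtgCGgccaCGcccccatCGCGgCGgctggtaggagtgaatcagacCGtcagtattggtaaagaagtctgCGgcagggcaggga
Nanos3 (chr8:84176553-84176802, minus strand): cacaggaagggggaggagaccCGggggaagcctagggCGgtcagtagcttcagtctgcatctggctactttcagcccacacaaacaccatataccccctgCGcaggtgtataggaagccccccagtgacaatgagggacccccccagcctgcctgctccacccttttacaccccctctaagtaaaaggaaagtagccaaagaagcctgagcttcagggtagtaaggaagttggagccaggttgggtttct

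Among these few genes the CG count did not sort with the direction of the sex difference, and they are too few to test a link. Among the female-high genes, the first Alpl window and the Dazl window held 20 CG each, a count reached by 17.9% of all windows, Lin28a held 7 (46.3%) and the second Alpl window 4 (62.2%). Among the male-high genes Prdm1 held 15 (27.3%) and Nanos3 held 3 (71%). Of the genes that were not called, Ddx4 held 31 (5.19%) and the overlapping windows of Kit 17 and 18 (23.5% and 21.7%). Only RNA was analysed here, so the counts of CG describe the sequences alone.

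The 3 specification factors did not share a direction. Prdm1 (chromosome 10, ENSMUSG00000038151), which encodes the repressor BLIMP1, was at 85.1, 124 and 107 CPM in the 3 female Ctrl embryos and at 204, 190, 230 and 133 CPM in the 4 male Ctrl embryos, so the lowest male was above the highest female. Its male level was 1.8-fold the female level (log2 fold change female against male -0.84, SE 0.18, edgeR's adjusted p = 0.00227). Prdm14 (chromosome 1, ENSMUSG00000042414), whose protein sustains the pluripotency network and restrains DNA methylation, was at 31.6, 37.7 and 44.2 CPM in females and at 63.6, 78.2, 68.4 and 58.3 CPM in males. It was thus 1.77-fold higher in males (-0.83, SE 0.16, edgeR's adjusted p = 0.00122), a difference of nearly the size seen in Prdm1. Tfap2c (chromosome 2, ENSMUSG00000028640), the gene of the AP-2 gamma factor that acts downstream of Prdm1 in specification, went the other way, at 160, 193 and 168 CPM in females and 55.4, 154, 98.2 and 75.6 CPM in males. The males were widely spread and male Ctrl 2 lay just under the lowest female. The female level was 1.81-fold the male level (0.86, SE 0.27, edgeR's adjusted p = 0.0233), but this call was lost without female Ctrl 2 (edgeR's adjusted p = 0.0802), without male Ctrl 4 (0.0586) or without the filter on low counts (0.109).

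Of the RNA-binding survival factors, Nanos3 was higher in males and Dnd1 was not called. Nanos3 (chromosome 8, ENSMUSG00000056155), which protects migrating germ cells from apoptosis, was at 8.51, 10.1 and 11 CPM in females and 26.5, 16.9, 13.3 and 20.5 CPM in males. Every male was above every female, and the male level was 1.95-fold the female level (log2 fold change -0.96, SE 0.21, edgeR's adjusted p = 0.003). Dnd1 (chromosome 18, ENSMUSG00000044595), whose protein works with the CCR4-NOT deadenylase on bound transcripts, was at 224, 194 and 202 CPM in females and 262, 181, 160 and 240 CPM in males. The sexes overlapped fully, and the interval of the log2 difference ran from -0.41 to 0.35 (95%, edgeR's adjusted p = 0.918). Of the exonic length of Dnd1, 5.8% overlaps Wdr55 on the opposite strand, and the library chemistry does not mark strand, so reads there cannot be assigned to either gene.

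The surface markers parted, with Alpl showing the largest sex difference of the set and Kit none that passed. Alpl (chromosome 4, ENSMUSG00000028766) was at 390, 358 and 365 CPM in female Ctrl and at 107, 160, 90 and 124 CPM in male Ctrl, a gap wider than the spread within either sex. This made it 3.09-fold higher in females (log2 fold change 1.63, SE 0.15, edgeR's adjusted p = 4.75e-06), and its p ranked 220 of 16708 genes. Kit (chromosome 5, ENSMUSG00000005672), the receptor for the survival and migration signal of the gonad, was at 550, 473 and 554 CPM in females and 377, 691, 647 and 435 CPM in males. The female values fell inside the male range, with a log2 difference between -0.44 and 0.37 (95% interval, edgeR's adjusted p = 0.906). The male embryos split into a higher and a lower pair for Kit, and the higher pair (male Ctrl 2 and 3) was also the higher pair for Tfap2c.

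Among the remaining genes Lin28a and Dazl were higher in females and Ddx4 overlapped. Lin28a (chromosome 4, ENSMUSG00000050966), whose protein blocks maturation of the let-7 microRNAs and is needed for germ cell formation, was at 140, 155 and 127 CPM in females and 80, 67.6, 64.5 and 64 CPM in males. It was 2.04-fold higher in females without overlap (log2 fold change 1.03, SE 0.15, edgeR's adjusted p = 0.000151). Of its exonic length, 5.9% overlaps Gm13061 on the opposite strand. Dazl (chromosome 17, ENSMUSG00000010592), the licensing factor for sexual differentiation of germ cells, was at 3112, 2992 and 3165 CPM in females and 2361, 2258, 2476 and 2446 CPM in males. The difference was small, 1.3-fold, yet larger than the spread between embryos (0.37, SE 0.07, edgeR's adjusted p = 0.00153). Ddx4 (chromosome 13, ENSMUSG00000021758), the helicase of germ granules, was at 1187, 1143 and 1085 CPM in females and 1265, 812, 1101 and 1142 CPM in males. Its sexes overlapped, with a log2 difference between -0.20 and 0.35 (95% interval, edgeR's adjusted p = 0.673).

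**Figure D2:**
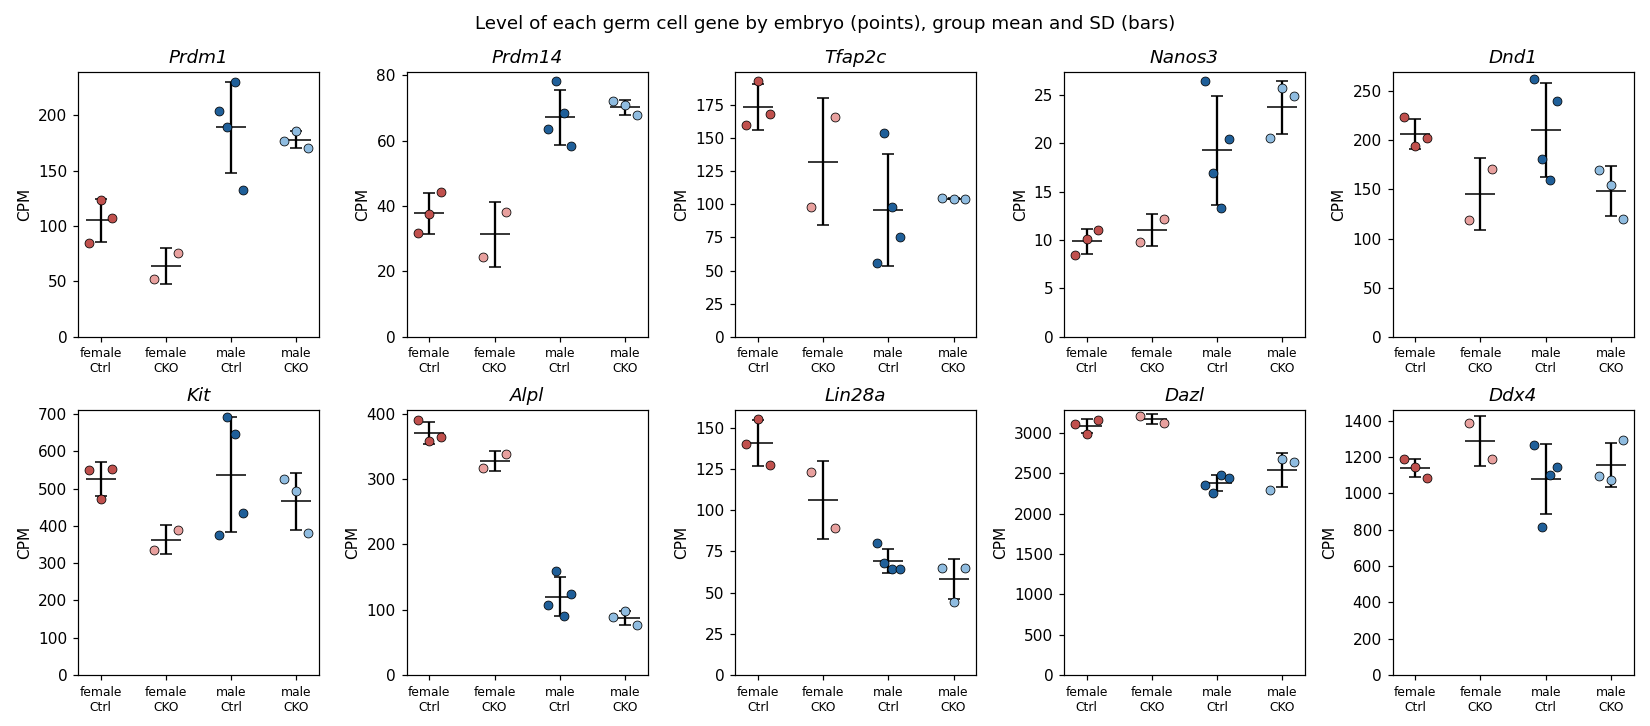
CPM of each of the 10 genes (vertical axes from 0) in female Ctrl, female CKO, male Ctrl and male CKO germ cells, 1 point per embryo, with horizontal bars at the group mean and vertical bars of 1 SD. Sex separates the points for Alpl, Lin28a, Dazl, Prdm1, Prdm14 and Nanos3 in Ctrl and CKO alike. Ctrl and CKO points overlap for all 10 genes in males and for 4 of 10 in females.

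Most of these sex differences were present in CKO embryos, which are different animals from the controls. Of the 7 genes that differed between control sexes, 6 were called in CKO in the same direction, 3 higher and 3 lower in females (edgeR), where 38.4% of all tested genes were called (19.4% or 3239 genes higher and 19% or 3172 lower, 4336 and 2212 when scaled by library size alone). The CPM of these 6 did not overlap between the sexes, which held for 64.2% of all genes with these 2 and 3 embryos (33.4% higher and 30.8% lower). Alpl was at 317 and 338 CPM in female CKO and 88.4, 97.8 and 76.4 CPM in male CKO, 3.74-fold higher in females (log2 fold change 1.90, SE 0.18, edgeR's adjusted p = 9.39e-06). Lin28a was at 123 and 89.2 CPM in females and 65.1, 44.1 and 64.9 CPM in males (0.87, SE 0.18, edgeR's adjusted p = 0.002), so its groups stayed apart although the second female lay lower. Dazl was at 3217 and 3128 CPM in females and 2297, 2676 and 2647 CPM in males (0.32, SE 0.09, edgeR's adjusted p = 0.0122).

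The genes higher in control males were again higher in CKO males. Prdm1 was at 52.5 and 75.3 CPM in female CKO and 177, 186 and 171 CPM in male CKO, a 2.79-fold difference (log2 fold change -1.48, SE 0.22, edgeR's adjusted p = 0.000229). Prdm14 was at 24.3 and 38.3 CPM in females and 72.1, 70.9 and 67.7 CPM in males, a 2.25-fold difference (-1.17, SE 0.20, edgeR's adjusted p = 0.000492). Nanos3 was at 9.84 and 12.2 CPM in females and 20.6, 25.7 and 24.9 CPM in males (-1.11, SE 0.26, edgeR's adjusted p = 0.00434). In all 3 the male embryos lay close together and above both females. Tfap2c was not called, at 98.3 and 166 CPM in females and 105, 104 and 104 CPM in males, and the females lay on both sides of the males (0.34, 95% interval -0.36 to 1.04, edgeR's adjusted p = 0.432). The calls of Nanos3 and Dazl were lost without female CKO 1 (edgeR's adjusted p = 0.056 and 0.083).

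**Figure D3:**
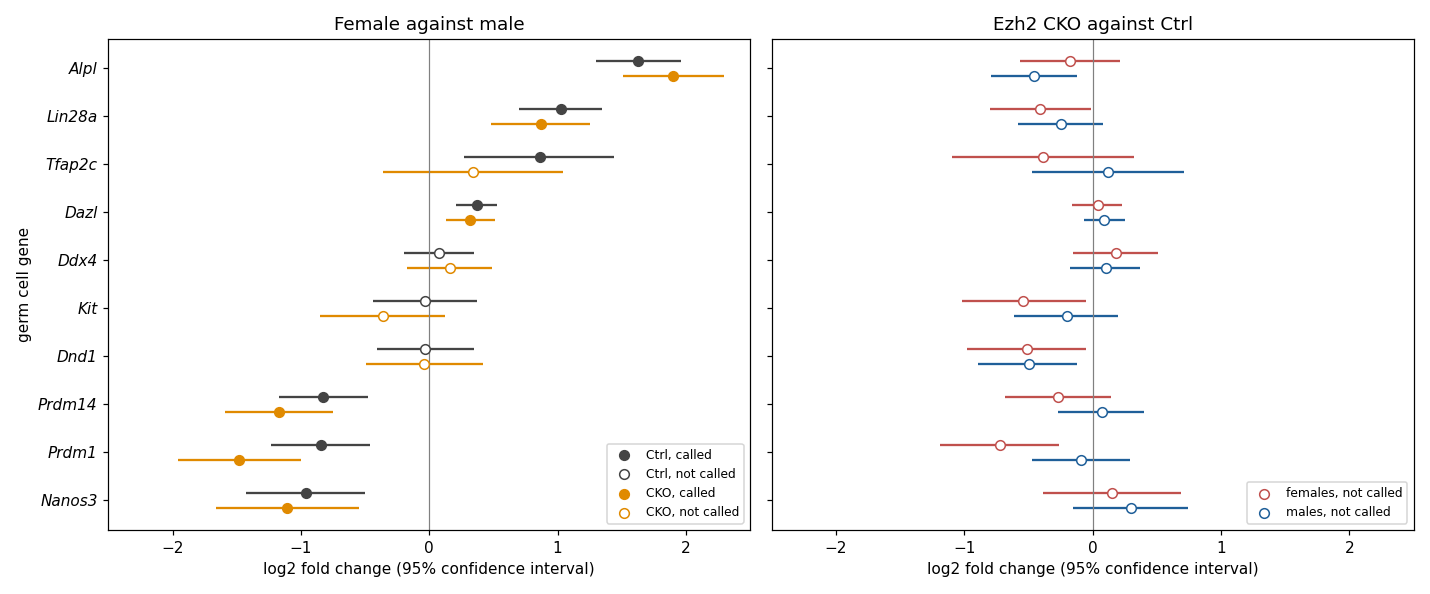
Log2 fold changes with 95% confidence intervals (horizontal axis) of the 10 genes, for female against male germ cells in Ctrl and CKO (left) and for CKO against Ctrl in females and males (right); filled points passed an edgeR's adjusted p of 0.05 and open points did not. On the left the filled points reach from -1.48 for Prdm1 to 1.90 for Alpl, both in CKO, and on the right all points are open.

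Knockout of Ezh2 in females left none of the 10 genes past the test, and the values of several lay below those of controls. In edgeR 0 of 10 were called, where 7.17% of all tested genes were (3.01% higher and 4.16% lower, that is 503 and 695 genes, or 652 and 357 when scaled by library size alone). At an unadjusted p under 0.05 there were 4, namely Prdm1, Dnd1, Kit and Lin28a, each lower in CKO, against 23.3% of all genes (3901). This count was 3 with median-of-ratios factors and in DESeq2. With library size alone and without female Ctrl 1 it was 1, against 3928 and 3518 of all genes. Without female Ctrl 3 it was 2, against 3067. Fits without female CKO 1 or 2 keep only 1 CKO embryo, so no such count is given for them. DESeq2 called 1, Prdm1. The groups did not overlap for 6 genes, 5 lower and 1 higher, against 44.6% of all genes with these 2 and 3 embryos (22.2% higher and 22.3% lower). The median log2 fold change of the 10 was -0.33, against 0.00 over all genes.

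Prdm1 stood nearest to the threshold, at 52.5 and 75.3 CPM in female CKO below the 85.1 to 124 CPM of female Ctrl. Its log2 fold change was -0.72 (SE 0.22, 95% interval -1.19 to -0.26, edgeR's adjusted p = 0.0604), and it passed in DESeq2 (0.0255) and when only the female groups were fitted (0.0495). Over all 11 alternatives its log2 fold change ran from -0.99 to -0.48 and its adjusted p from 0.0255 to 0.369. Kit, at 335 and 390 CPM in CKO and 473 to 554 CPM in Ctrl, had a log2 fold change of -0.54 (SE 0.23, 95% interval -1.02 to -0.05, edgeR's adjusted p = 0.173) and passed when only the female groups were fitted (0.0283). Dnd1 was at 119 and 171 CPM in CKO and 194 to 224 CPM in Ctrl (-0.51, SE 0.21, edgeR's adjusted p = 0.166). Lin28a was at 123 and 89.2 CPM in CKO and 127 to 155 CPM in Ctrl (-0.41, SE 0.18, edgeR's adjusted p = 0.198). In these 4 genes both CKO embryos lay below all 3 controls. Female CKO 1 was below female CKO 2 in 7 of the 10 genes and above it in Lin28a, Dazl and Ddx4. The same split over all tested genes was not counted, so this does not set the 10 genes apart. Female CKO 1 was also the library with 16.1 CPM of red blood cell markers against 1.14 CPM in female CKO 2. Female CKO 2 in turn had 15.5 CPM of mesenchyme markers, against 2.03 to 5.15 CPM in the other female libraries. Their part in these values was not tested.

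Dazl had the smallest value of the set. It had a log2 fold change of 0.04 in female CKO (95% interval -0.16 to 0.23, edgeR's adjusted p = 0.844), and Ddx4 of 0.18 (-0.15 to 0.51, 0.525) with 1386 and 1190 CPM in CKO against 1085 to 1187 CPM in Ctrl. Alpl was at 317 and 338 CPM against 358 to 390 CPM (-0.18, interval -0.57 to 0.21). Nanos3 (0.15, interval -0.39 to 0.69), Prdm14 (-0.27, -0.68 to 0.14) and Tfap2c (-0.39, -1.10 to 0.32) overlapped between CKO and Ctrl, with the widest interval in Tfap2c.

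In males none of the 10 genes passed the test either, and Ctrl and CKO overlapped in each of them. In edgeR 0 of 10 were called, where 1.7% of all tested genes were (1.2% or 201 genes higher and 0.497% or 83 lower), and DESeq2 called 0 as well. The share of all genes whose groups did not overlap was 15% (8.01% higher and 6.97% lower), and among the 10 it was 0. The median log2 fold change of the 10 was -0.01, against -0.02 over all genes. At an unadjusted p under 0.05 there were 2, both lower in CKO, against 16.7% of all genes (2789). Alpl was at 88.4, 97.8 and 76.4 CPM in CKO against 107, 160, 90 and 124 CPM in Ctrl (log2 fold change -0.46, SE 0.16, edgeR's adjusted p = 0.154), and 1 control lay inside the CKO range. Dnd1 was at 170, 155 and 120 CPM against 262, 181, 160 and 240 CPM (-0.50, SE 0.18, edgeR's adjusted p = 0.171), a value close to that of the females. Prdm1 was at 177, 186 and 171 CPM against 204, 190, 230 and 133 CPM (-0.09, 95% interval -0.47 to 0.29). The remaining log2 fold changes ran from -0.25 for Lin28a to 0.30 for Nanos3, with edgeR's adjusted p from 0.447 to 0.882.

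The difference between the female and the male knockout effect was tested directly, and no member passed. In edgeR 0 of 10 and 0 of 16708 genes (0%) were called for this difference, with 1 and 1401 (8.39%) at an unadjusted p under 0.05. DESeq2 called 0 of the 10 and 51 of all genes. Prdm1 was the 1 of 10, with a log2 difference of -0.63 (SE 0.28, 95% interval -1.23 to -0.04, edgeR's adjusted p = 0.582). For Dnd1 the effects were nearly equal, with a difference of -0.01 (interval -0.60 to 0.58). For the others the difference lay between -0.52 in Tfap2c and 0.28 in Alpl. The knockout effects on Prdm1 were therefore not shown to differ between the sexes.

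Genes that work with the specification factors were described from a list of 19 (18 tested). Between control sexes 3 were higher and 7 lower in females, with a median log2 fold change of -0.31 against 0.00 over all genes. Of all tested genes 39.5% were called there. Lower in females, like Prdm1 and Prdm14, were Dppa3, a maternal factor gene that marks specified germ cells, at 668 ± 97.2 CPM (n = 3) in female and 1310 ± 151 CPM (n = 4) in male Ctrl (-0.97, edgeR's adjusted p = 2.68e-05), Utf1, a chromatin gene of pluripotent cells (-1.25, 5.71e-05), and Prmt5, an arginine methyltransferase that partners PRDM1 (-0.69, 0.000168). In female CKO 0 rose and 4 fell, with a median of -0.36, where 7.17% of all tested genes were called. The falls were in Nanog (-1.05), Dppa3 (-0.65), Pou5f1 (-0.56) and Sall4 (-0.57). The first 3 are genes that germ cells share with pluripotent cells, and Sall4 encodes a zinc finger factor of both. Other genes of pluripotent cells on the list were not called, with log2 fold changes of -0.03 for Sox2, 0.03 for Klf2 and -0.33 for Utf1 (edgeR's adjusted p = 0.927, 0.956 and 0.319). All 4 were lost without female CKO 1 (edgeR's adjusted p = 0.149, 0.0664, 0.13 and 0.286) and without female Ctrl 3 (0.0713, 0.0615, 0.053 and 0.109). Dppa3 was also lost without female CKO 2 (0.119), Sall4 without female Ctrl 1 (0.0789), and Pou5f1, Nanog and Sall4 without female Ctrl 2 (0.0541, 0.0569 and 0.118). Sall4 was called in 4 of 11 alternatives, and also lost its call with median-of-ratios factors (0.0515), with library size alone (0.0927) and with only the female groups (0.0906). In male CKO 0 of 18 were called in edgeR, with 3 at an unadjusted p under 0.05. The shares of all tested genes were 1.7% and 16.7%.

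Among 19 genes of the CCR4-NOT deadenylase and other RNA regulators, which carry out the work of NANOS3 and DND1, 3 were higher and 6 lower in female than male Ctrl (median -0.13). Of all tested genes 39.5% were called in this comparison and 7.17% in female CKO. Nanos1, a paralog of Nanos3, was higher in females, at 17.8 ± 2.64 CPM against 9.68 ± 1.11 CPM (0.88, edgeR's adjusted p = 0.000901), the direction opposite to Nanos3. Nanos2, a paralog of the male germ line that was named after its values were seen, had the direction of Nanos3, at 0.0219 ± 0.019 CPM (n = 3) in female and 10.9 ± 11.2 CPM (n = 4) in male Ctrl (edgeR's adjusted p = 0.00112). It passed in each of the 13 alternatives, and no fold is given against so low a female level. Cnot3, a subunit of the deadenylase (-0.54, 0.000801), and Cpeb1, a regulator of poly(A) tails (-0.55, 0.000615), were lower in females. In female CKO 0 rose and 1 fell, the scaffold gene Cnot1 (-0.67, edgeR's adjusted p = 0.031), a call kept in 5 of 11 alternatives and lost without any 1 of the 5 female libraries (0.0512 to 0.186) or with library size alone (0.0669). In male CKO 0 of 19 were called in edgeR, with 4 at an unadjusted p under 0.05. The shares of all tested genes were 1.7% and 16.7%.

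Of 20 genes of KIT signalling, 2 were higher and 5 lower in female Ctrl (median -0.39), while Kit itself was not called. In this comparison 39.5% of all tested genes were called. Pik3cd, a catalytic subunit gene of phosphoinositide 3-kinase, was at 42.7, 43.8 and 45.9 CPM in female Ctrl and 252, 203, 187 and 228 CPM in male Ctrl, far apart with a log2 fold change of -2.30 (SE 0.15, edgeR's adjusted p = 2.01e-07). The docking protein gene Gab2 went the other way, at 58.7, 47.8 and 53.7 CPM in females and 9.52, 15.8, 10.6 and 9.88 CPM in males (2.22, SE 0.18, edgeR's adjusted p = 1.32e-06). Pik3ca was lower in females (-0.82, 6.32e-05). All 3 differences passed in each of the 13 alternatives.

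In female CKO 0 of these 20 genes rose and 4 fell, with a median of -0.17, where 7.17% of all tested genes were called. The adaptor gene Grb2 fell from 86.2, 86.6 and 89.3 CPM to 62.3 and 57.2 CPM (-0.55, SE 0.10, edgeR's adjusted p = 0.00879), a call lost only without female CKO 2 (0.0814) among 11 alternatives. Pik3cd fell to 20.6 and 26.6 CPM (-0.90, SE 0.17, edgeR's adjusted p = 0.00892), lost only without female CKO 1 (0.0863). The adaptor gene Shc1 (-0.60, 0.0235) was lost without female CKO 2 (0.207), without any of the female Ctrl (0.0597 to 0.0666) and with library size scaling (0.0616). Gab2, the other that fell, was named after its values were seen (-0.76, 0.0485) and was called in 3 of 11 alternatives. It was lost without any 1 of the 5 female libraries (0.0807 to 0.24), with the block (0.084) and with median-of-ratios or library size scaling (0.0586 and 0.0868). In male CKO 1 rose and 0 fell (median -0.13), where 1.7% of all tested genes were called. The 1 was the regulatory subunit gene Pik3r1, at 10.4 ± 2.05 CPM (n = 3) against 2.75 ± 1.53 CPM (n = 4, log2 fold change 1.92, edgeR's adjusted p = 0.0332). That call was lost without male CKO 1, 2 or 3 (0.0505, 0.154 and 0.102) and without male Ctrl 3 or 4 (0.0861 and 0.0592). It was also lost with the replicate number as a block (0.0572) and with only the male groups (0.0877). Pik3r1 was higher in female CKO too, at 6.32 and 6.62 CPM against 2.98, 1.63 and 1.58 CPM in female Ctrl. This was not called (1.65, SE 0.48, edgeR's adjusted p = 0.0551), and the female and male effects were not shown to differ (-0.27, edgeR's adjusted p = 0.938). Kitl, the ligand gene, is made by somatic cells and was at 1.19 ± 0.129 CPM in female and 2.52 ± 0.843 CPM in male Ctrl (-1.07, edgeR's adjusted p = 0.022). Its CKO levels were 2.57 ± 0.013 CPM in females and 4.2 ± 1.29 CPM in males. Neither was called against Ctrl (1.10 and 0.74, edgeR's adjusted p = 0.102 and 0.26).

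In the LIN28 and let-7 pathway, 2 of 15 genes were higher and 2 lower in female Ctrl (median -0.10). In this comparison 39.5% of all tested genes were called. Lin28b, the paralog of Lin28a, had the same pattern, at 54.3, 48.5 and 54.1 CPM in female and 25, 30.2, 32.8 and 28.6 CPM in male Ctrl (0.84, SE 0.14, edgeR's adjusted p = 0.000313), and again in CKO (0.65, 0.00675). Drosha, which cuts primary microRNAs (-0.54, 0.00104), and Mycn, a let-7 target (-0.52, 0.00198), were lower in females. In female CKO 1 rose and 2 fell, with a median of -0.42, where 7.17% of all tested genes were called. Hmga2, a let-7 target gene, rose from 1.8 ± 0.42 CPM (n = 3) to 7.67 ± 0.947 CPM (n = 2, log2 fold change 2.09, SE 0.36, edgeR's adjusted p = 0.00701) and passed in each of the 11 alternatives. Hmga1 (-0.47, 0.0214) and Mycn (-0.50, 0.0382) fell, each called in 7 of 11. Both were lost without female CKO 1 (0.0574 and 0.286), female Ctrl 2 (0.0601 and 0.114) or female Ctrl 3 (0.0852 and 0.118), Hmga1 also without female CKO 2 (0.168), and Mycn also with library size alone (0.0734). In male CKO 0 of 15 were called in edgeR, with 5 at an unadjusted p under 0.05. The shares of all tested genes were 1.7% and 16.7%.

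Transcripts known to be bound by DAZL (8 genes) and partners of DDX4 in the germ granule (14 tested of 15 matched) were the last lists. Of all tested genes 39.5% were called between control sexes, 7.17% in female CKO and 1.7% in male CKO. Of the DAZL list 1 was higher and 2 lower in female Ctrl (median -0.09): the synaptonemal complex gene Sycp3 was higher (1.44, edgeR's adjusted p = 0.000122) and Casp9, a gene of programmed cell death, was among the lower (-0.62, 0.00648). In female CKO Sycp3 rose (1.10, 0.0185), with 216 CPM in female CKO 1 and 102 in female CKO 2, while Suz12 (-0.72, 0.0132) and Sall4 fell. Without female CKO 1 the Sycp3 value was 0.46 (0.266) and Suz12 was lost (0.114); without female Ctrl 3 both were lost (0.0728 and 0.0554), and Sycp3 also without female Ctrl 1 (0.0551) and with the replicate block (0.0515). Of the DDX4 partners 2 were higher and 1 lower in female Ctrl (median 0.22), namely Rnf17 (0.41, 0.00538) and Mael (0.57, 0.0394) against Tdrd5 (-1.21, 0.00122). The Mael call was kept in 6 of 13 alternatives and lost without any of the female Ctrl, without male Ctrl 2 or 3 (0.0592 to 0.105), without the filter (0.126) or with only the groups compared (0.0569). In female CKO 2 rose and 0 fell (median 0.28), Mael (1.21, 0.0127, lost without female CKO 1 at 0.104 or female Ctrl 3 at 0.0504) and Piwil4, a PIWI protein gene (1.09, 0.0284, lost without any 1 of the 5 female libraries at 0.0518 to 0.149 and with the block at 0.0528). In male CKO Piwil4 was the 1 that rose (1.02, 0.0397), and it was lost without male CKO 2 or 3 or male Ctrl 3 or 4 (0.0927 to 0.19), with the block (0.0886) and with only the male groups (0.111). All adjusted p in this paragraph are edgeR's.

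Of 3 further alkaline phosphatase genes and Phospho1, only Alppl2 passed the filter, and it did so through its male libraries alone. It had 2 counts in all in the 3 female Ctrl and 1 in the 2 female CKO, against 70 in the 4 male Ctrl and 117 in the 3 male CKO. Because the filter kept it for its male level, its test between the sexes is not used and only the counts are given. Akp3, Alpi and Phospho1 had at most 5 counts in any group.

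**Figure D4:**
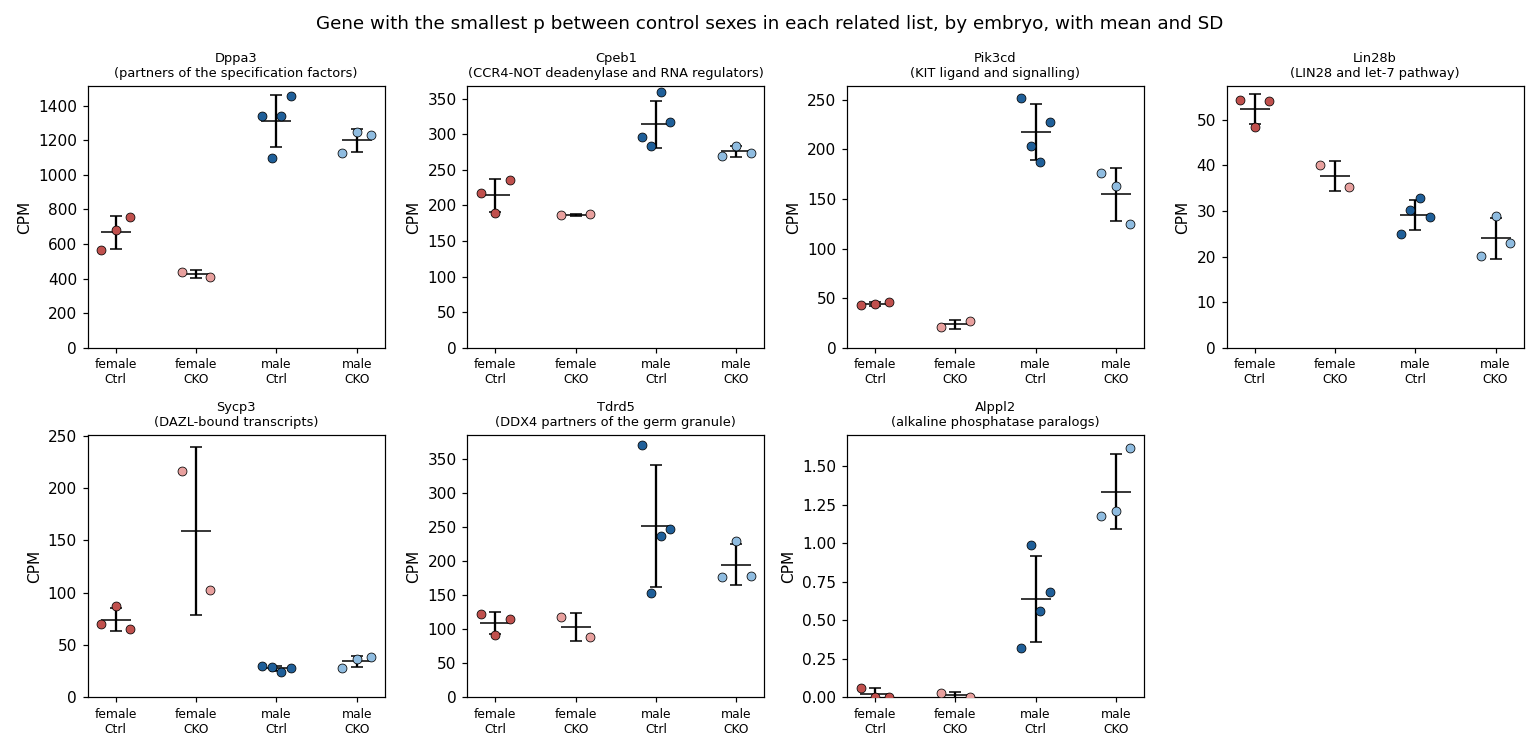
CPM (vertical axes from 0) of the gene with the smallest p between control sexes in each of the 7 lists, by embryo and group, with horizontal bars at the mean and vertical bars of 1 SD. Lin28b and Sycp3 are higher in females, as Lin28a and Dazl are, and Dppa3, Cpeb1, Pik3cd, Tdrd5 and Alppl2 are higher in males. Alppl2 was the only tested gene of its list and passed the filter on low counts through male libraries alone.

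For each of the 7 genes called between sexes, the genes with the most similar profile were sought among all tested genes. Likeness was the root mean square difference of log2 CPM, each gene centred on its own mean over the 12 libraries, so 0 means equal profiles. Dazl, whose own root mean square deviation was 0.19, was matched best by Prmt9 and Ergic2 (0.06 each). Prdm14 (own deviation 0.53) was closest to Ppfibp2 (0.08) and Pmm1 (0.12). Tfap2c (0.51) was closest to Gca (0.13) and Laptm4b (0.18), and Prdm1 (0.63) to Skp2 (0.17) and Nmnat2 (0.19). Lin28a (0.54) was nearest to Pxmp4 (0.18) and Apeh (0.20), and Nanos3 (0.57) to Arl3 and Zfp59 (0.20 each). Alpl, with the largest own deviation of 0.91, was nearest to Efs (0.21) and Efna1 (0.24). None of the 7 had another of the 10 genes among its nearest genes listed here.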

How the data were processed

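RNA was measured in germ cells sorted from 12 embryos, 1 library per embryo. Per the labels' protocols, cDNA came from SMART-seq V4, whose chemistry does not mark strand, and libraries from NEBNext Ultra II. The authors deposited raw read counts per Ensembl gene, with no normalization, per the file headers and whole-number values. The submitters' processing notes list TopHat2 2.0.11 and featureCounts, besides Trimmomatic 0.33 and CASAVA 1.8.4, with the builds mm9 and NCBIM37; how reads matching several places were counted is not given in the sources used here. Symbols came from GENCODE M21 for 32919 of 37991 identifiers (99.5% of counts).

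Genes were kept by filterByExpr (minimum count 10, minimum total 15; 16708 genes) and tested with edgeR 4.0.16 (limma 3.58.1, R 4.3.3), quasi-likelihood with robust dispersion, 1 coefficient per group over 12 libraries and 8 residual degrees of freedom. P-values were Benjamini-Hochberg adjusted over all tested genes and called under 0.05. TMM factors ran from 0.926 to 1.11. SE were derived from the F statistic, and 95% intervals are not adjusted for multiple genes. Likeness used log2 CPM with a prior count of 2. Libraries of a group differed by more than counting noise (chi-square per gene 18.6 to 74.2). The labels do not state litters, so p-values measure the spread between these embryos. The main edgeR fit was checked on simulated counts for CKO against Ctrl in each sex and for female against male Ctrl. The other comparisons and the alternative settings were not checked in this way. Named genes are the 10 members, Ezh2, up to 3 called genes per list and contrast with the smallest adjusted p, and the 2 nearest profiles per called member. Kitl, Gab2 and Pik3r1 in females, Nanos2, Sox2, Klf2 and the uncalled phosphatases were named after their values were seen. Members and lists were chosen with earlier results of these data known. Gasz on the germ granule list is an alias of Asz1, and Gcna did not match. A gene that met the naming rule is not reported here. Alternatives were median-of-ratios factors, library size only, no filter, DESeq2 1.42.0, the replicate number as a block, only the groups compared, and leaving out each library.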

Additional observations from a re-analysis of the deposited data

How the results depend on the processing

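The 7 sex differences in controls kept their direction in all 13 alternatives and were called in all but 3 runs, each concerning Tfap2c; leaving out 1 library gave 6 to 7 calls. In CKO, leaving out 1 library gave 4 to 6. No member was called in males or for the difference between the effects under any setting. In females 1 was called in DESeq2 and 1 with the replicate block (Prdm1, edgeR's adjusted p = 0.0277), and 2 (Prdm1, Kit) with only the groups compared. Of all genes these settings called 1973, 1054 and 1705 in females, against 1198 in the main fit. The labels do not say that replicate numbers mark a shared litter, so the block is an alternative only. The numbers used were those of the sample titles, and same-numbered libraries did not deviate together (correlations from -0.10 to 0.11). In females the column names of the count table carry partly other numbers. Blocks by those numbers were not tested, so the correlations do not settle whether embryos shared a litter. With the block the male count over all genes was 105, and no other member's call changed. Among partner genes the block ended the calls of Piwil4 in both sexes, Sycp3 and Gab2 in females and Pik3r1 in males. For all genes, DESeq2 called 1973 in females, 982 in males and 51 for the difference of effects, where no filter called 2, and only the male groups gave 63, against 1198, 284 and 0. Leaving out 1 library gave 317 to 691 calls in females, 36 to 502 in males, 0 to 3 for the difference, 5138 to 6774 between control sexes and 4063 (without female CKO 1) to 5602 between CKO sexes. In females each of the 5 omissions moved the count by over 1.5 times. In males those without male CKO 2 (36), male CKO 3 (48), male Ctrl 2 (502), male Ctrl 3 (85) and male Ctrl 4 (151) did. Library size scaling moved the median of all genes by 0.11 in female CKO, 0.10 between control sexes and 0.21 between CKO sexes. It turned the uncalled values of Dnd1 between sexes to 0.07 in Ctrl and 0.15 in CKO and of Kit in Ctrl to 0.07.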
